A study of Rattus norvegicus with 6 samples.

Results

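The miR-26 family was examined here, in small RNA libraries of rat serum exosomes, as the miRNAs listed for 2 precursors, miR-26a and miR-26b. Its 4 members were found by their names, a rule that uses no measured value. All 4, rno-miR-26a-5p, rno-miR-26a-3p, rno-miR-26b-5p and rno-miR-26b-3p, were found among the 867 miRNA rows listed. Each is in the class that the table calls exist, which holds 427 rows with rat names. The libraries came from male Sprague-Dawley (SD) rats aged 6 to 8 weeks on a normal diet. NXT-Exo (5 libraries, replicates 1 to 5) are exosomes of rats that received 1000 mg/kg/d of Naoxintong Capsule (NXT, a traditional Chinese medicine) by gavage, and Ctl-Exo (1 library, replicate 5) those of rats that received 5 mL/kg/d of saline. By their titles, all 6 libraries come from rats dosed for 7 days. The treatment field instead counts up from 7 days in NXT-Exo 1 to 11 days in NXT-Exo 5, and also holds 11 days in Ctl-Exo 5. Each group held 10 rats, 10 mL of blood was drawn from each, and 110 mL of serum in total was ultracentrifuged. The labels do not say whether a library stands for 1 rat or for a pool. The deposited table also has columns named for Ctl-Exo 1 to 4, which match none of the samples described here and were not used here, so each comparison rests on Ctl-Exo 5 alone.

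A miRNA precursor folds into a hairpin, and Dicer cuts it into a duplex of a 5p and a 3p strand. One strand is usually kept by an Argonaute protein and guides it to target mRNAs, mainly through bases 2 to 8 of the miRNA, the seed, while the other strand is broken down. The miR-26 family is found in most tissues and in blood. The family is known to restrain cell growth, with the Polycomb methyltransferase EZH2 among its established targets, and in endothelial cells miR-26a is known to act on the BMP signal carrier SMAD1. In mammals the miR-26 genes lie inside genes of small C-terminal domain phosphatases (the CTDSP genes), which act on the same cell cycle pathway as the retinoblastoma protein.

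The mature sequences are shown first, because the order of the levels described further on runs along arms and seeds. The 4 members are identical in the deposited table and in RefSeq, and capitals mark the seed.
miR-26a-5p: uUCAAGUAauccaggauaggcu
miR-26b-5p: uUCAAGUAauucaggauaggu
miR-26a-3p: cCUAUUCUugguuacuugcac
miR-26b-3p: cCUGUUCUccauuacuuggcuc
Both 5p arms carry the seed UCAAGUA. With positions counted from 1 at the 5′ end, miR-26b-5p differs from miR-26a-5p by C11U and C21U over the 21 bases they can be compared on. Neither change lies in the seed, and the first of them lets every full-length read be placed with one or the other. The 3p arms differ at 7 of 21 bases, 1 of them (A4G) in the seed, so that CUAUUCU and CUGUUCU are separate seeds.

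The gene of miR-26a (Mir26a, gene 100314290) lies at chr8:127633048-127633137 on the plus strand of GRCr8, in a hairpin of 90 bases. That of miR-26b (Mir26b, gene 100314229) lies at chr9:83425709-83425793, also on the plus strand, in a hairpin of 85 bases. In the NCBI gene list of the same assembly, Mir26a lies within the span of Ctdspl and Mir26b within that of Ctdsp1, each on the strand of its host. Whether they lie in an intron or an exon was not examined here. The submitters' processing notes name Rnor_6.0, and no coordinate was converted between the builds.

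Among the 867 listed rows, 3 others share a seed with a member, all without the rat prefix. They are shown because reads of a member could have been divided with them.
miR-26-x: uUCAAGUAauucaggauagguuu
miR-26-z: uUCAAGUAauccaggauggcu
miR-26-y: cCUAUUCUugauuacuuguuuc
miR-26-x begins with all 21 bases of miR-26b-5p. Its first 22 of 23 bases are found in the rat miR-26b hairpin and the last is not, so its reads and those of miR-26b-5p are reported as uncertain in their division. miR-26-z is miR-26a-5p with 1 base deleted at position 18, and miR-26-y has the seed of miR-26a-3p with 4 differences over 21 bases. None of the 3 is found whole in a rat hairpin of the RefSeq table. Whether any of them, or part of the miR-26a-5p reads, comes from a further precursor was not examined.

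Listed reads numbered 1890463 in Ctl-Exo 5 and between 1168686 and 3781718 in the NXT-Exo libraries. Counts were scaled to CPM (counts per 1e6 listed reads, with edgeR's TMM library factors), on which 1 read was worth 0.261 to 0.782 CPM. Red blood cell, white blood cell and platelet, liver and muscle miRNAs all had reads in these serum exosomes. The liver list of 3 miRNAs summed to 10882 to 24340 CPM in NXT-Exo against 7589 CPM in Ctl-Exo 5. Its member miR-122-5p varied widely between the NXT-Exo libraries (6838 ± 6036 CPM, SD, n = 5), and miR-802-5p had 0 reads in 2 of the 6 libraries. The red blood cell list of 4 summed to 157715 to 260257 CPM against 210386 CPM, and the muscle list of 3 to 81.3 to 153.4 CPM against 104.0 CPM. As 1 Ctl-Exo library was analysed, no p-value was calculated. Differences were instead set beside the SD among NXT-Exo libraries, and the intervals given are 95% Wilson intervals, which cover counting error only.

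The family was abundant through a single member. miR-26a-5p took between 5.98% and 7.67% of all listed reads, which gave it rank 3 in 5 libraries and rank 4 in NXT-Exo 1. Next came miR-26b-5p, ranked 74th to 89th, then miR-26b-3p, ranked 286th to 323rd, and last miR-26a-3p, ranked 455th to 691st. In all 6 libraries the 4 members kept this order, and the intervals of neighbours in it did not overlap in any library. The members are 21 or 22 bases long, so dividing by length would change these comparisons by at most 1.05-fold. How well each sequence is ligated and amplified was not tested. All 4 members together made up 7.14% ± 0.70 (SD, n = 5) of what was listed for NXT-Exo and 7.31% for Ctl-Exo 5.

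miR-26a-5p, the leading arm, had 57952, 70370, 80031, 70032 and 73824 CPM in NXT-Exo 1 to 5 and 74335 CPM in Ctl-Exo 5. Ctl-Exo 5 lay inside the NXT-Exo range, with NXT-Exo 3 above it and the other 4 below. As shares of listed reads, however, NXT-Exo 3, 4 and 5 (7.46%, 7.67% and 7.48%) were above Ctl-Exo 5 (7.22%). How many libraries lay below it thus depended on the library factors. The NXT-Exo level was 70442 ± 8055 CPM (SD, n = 5). The log2 difference from Ctl-Exo 5, on the log2(CPM + 1) scale, was -0.08, and the NXT-Exo libraries varied by more than this (SD 0.17). With 89587 to 283054 reads per library, counting error was small beside the spread between libraries. Single libraries moved this value, to -0.12 without NXT-Exo 3, where the remaining NXT-Exo libraries were all below Ctl-Exo 5, and to -0.02 without NXT-Exo 1.

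For miR-26b-5p, which has the same seed, the 5 NXT-Exo libraries held 543, 616, 663, 710 and 673 CPM and Ctl-Exo 5 held 859 CPM. Every NXT-Exo library was lower than Ctl-Exo 5, and the interval of Ctl-Exo 5 (817 to 902 CPM) lay above that of NXT-Exo 4 (665 to 757 CPM), the closest library. NXT-Exo averaged 641 ± 63.9 CPM (SD, n = 5). This was a log2 difference of -0.42, beside an SD of 0.15 among the NXT-Exo libraries. A drop in the number of vesicles carrying a miRNA and a drop in its amount per vesicle cannot be told apart in such libraries. Like miR-26b-5p, the summed white blood cell and platelet list was lower in all 5 NXT-Exo libraries (21635 to 25494 CPM) than in Ctl-Exo 5 (26558 CPM). None of its 5 miRNAs had 0 reads in a library. Its largest part was miR-142-5p (mean 17700 CPM in NXT-Exo against 20887 CPM), and its log2 differences ranged from -0.42 to 0.06 (miR-126a-3p). The sum of a list of 10 widely expressed miRNAs was also lower in all 5 NXT-Exo libraries (253965 to 349343 CPM against 350351 CPM). miR-191a-5p made the largest part of it (mean 161610 CPM in NXT-Exo against 198538 CPM). The log2 differences of the 10 ranged from -0.30 to 0.31, with a median of -0.01. Of the 5 white blood cell and platelet miRNAs, 2 were lower in all NXT-Exo libraries, beside 15.3% of the 865 miRNAs with reads. The part of either list in the difference of miR-26b-5p was not tested.

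miR-26b-3p, the opposite strand of the same hairpin, went the other way. It had 15.0, 17.8, 18.0, 13.3 and 18.5 CPM in NXT-Exo 1 to 5 and 12.5 CPM in Ctl-Exo 5. All NXT-Exo libraries were higher than Ctl-Exo 5, but their intervals overlapped with that of Ctl-Exo 5 (8.35 to 18.8 CPM, from 23 reads). NXT-Exo averaged 16.5 ± 2.26 CPM (SD, n = 5), at a log2 difference of 0.37 beside an SD of 0.19. On pooled reads, NXT-Exo was 1.36 times Ctl-Exo 5, with an exact (Clopper-Pearson) counting interval of 0.88 to 2.18. The difference was therefore within counting error at this depth.

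miR-26a-3p was close to the limit of detection, with 2, 1, 2, 0 and 7 reads in NXT-Exo 1 to 5 and 7 reads in Ctl-Exo 5. These are 0.67, 0.30, 0.90, 0 and 1.83 CPM against 3.81 CPM. The 0 reads of NXT-Exo 4 allow up to 2.35 CPM as a limit of 3 reads, and its Wilson interval reaches 3.00 CPM. NXT-Exo was at 0.74 ± 0.70 CPM (SD, n = 5), below Ctl-Exo 5 in every library, at a log2 difference of -1.47 beside an SD of 0.57. On pooled reads, Ctl-Exo 5 was 4.34 times NXT-Exo, with an exact counting interval of 1.45 to 11.95 over 12 and 7 reads. The interval of Ctl-Exo 5 (1.85 to 7.87 CPM) overlapped with that of NXT-Exo 5 (0.88 to 3.77 CPM) and with those of all other NXT-Exo libraries except NXT-Exo 2.

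**Figure D1:**
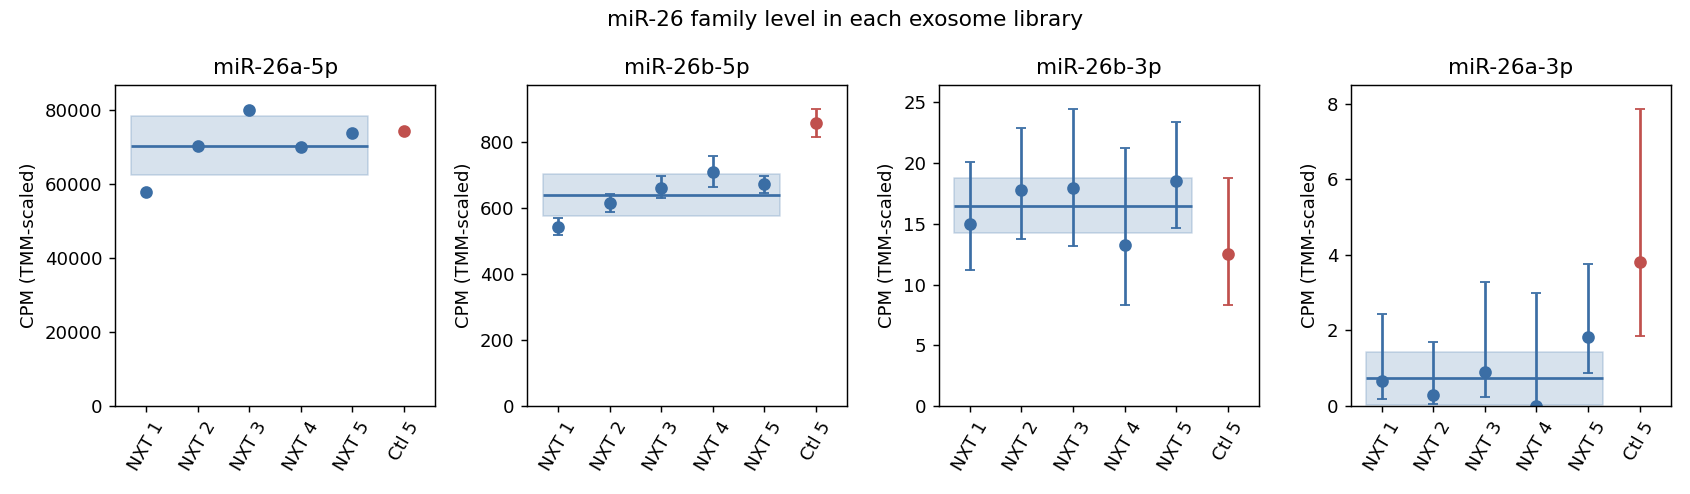
The level of each miR-26 member in CPM (TMM-scaled, linear axes from 0, a separate axis per member) in the 5 NXT-Exo libraries (blue) and Ctl-Exo 5 (red). Points are libraries with 95% Wilson counting intervals, and the line and band are the NXT-Exo mean ± SD. Ctl-Exo 5 is above all NXT-Exo libraries for miR-26b-5p (859 CPM) and miR-26a-3p (3.81 CPM), below all for miR-26b-3p (12.5 CPM) and within their range for miR-26a-5p (74335 CPM).

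Taken by count, 2 of the 4 members were lower in all 5 NXT-Exo libraries than in Ctl-Exo 5, beside 15.3% of the 865 miRNAs with reads, and 1 of 4 was higher in all 5, beside 15.0%. In either direction it was 3 of 4 members beside 30.3%. With only 4 members of 2 named precursors, nothing particular to the family was read from these counts. A miRNA was called apart when it also differed by at least 2-fold on the log2(CPM + 1) scale. By this rule 1 member, miR-26a-3p, was called apart and lower, beside 11.4% of miRNAs called in either direction and 6.13% called lower. That call was lost with a pseudocount of 10 CPM, at a log2 difference of -0.36. The median log2 difference was -0.25 over the 4 members, 0.16 over all 865 miRNAs and 0.03 over the 467 with a mean of 10 reads or more. The -0.25 and 0.03 do not cover like sets, because miR-26a-3p averaged 3.17 reads. The 3 members that averaged 10 reads or more were at -0.42, -0.08 and 0.37, with miR-26a-5p (-0.08) in the middle. The 0.16 became 0 when the middle NXT-Exo value of each miRNA replaced its mean. The median over the members was not calculated in that way.

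**Figure D2:**
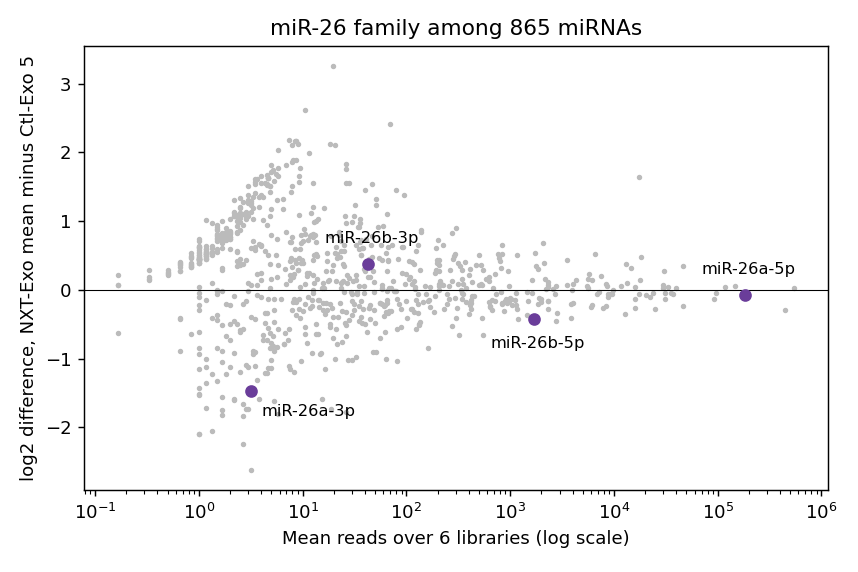
The log2 difference of each miRNA (NXT-Exo mean minus Ctl-Exo 5), on the log2(CPM + 1) scale, against its mean reads over the 6 libraries (log axis). Grey points are the 865 miRNAs with reads and purple points the members, from -1.47 for miR-26a-3p, the member with the fewest reads, to 0.37 for miR-26b-3p.

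The paralogues were then compared within each library, where depth and scaling cancel. miR-26a-5p had 106.6, 114.2, 120.8, 98.7 and 109.8 reads per read of miR-26b-5p in NXT-Exo 1 to 5, and 86.6 in Ctl-Exo 5. The ratio was higher in all 5 NXT-Exo libraries, and the interval of Ctl-Exo 5 (82.4 to 91.0) did not reach that of NXT-Exo 4 (92.4 to 105.3), the closest. The NXT-Exo mean was 110.0 ± 8.27 (SD, n = 5), and its log2 ratio to Ctl-Exo 5 of 0.35 exceeded the SD of 0.11. miR-26a-5p was also set against each of 228 miRNAs that averaged 100 reads or more. Its ratio was lower in Ctl-Exo 5 than in all NXT-Exo libraries for 11 of them, or 4.82%, and miR-26b-5p was 1 of these 11. All 228 ratios share the reads of miR-26a-5p. The opposite direction was not counted, nor were ratios with miR-26b-5p held fixed. By level, 15.3% of the 865 miRNAs with reads were, like miR-26b-5p, lower in all NXT-Exo libraries than in Ctl-Exo 5.

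The ratio was also taken with miR-26-x, whose reads cannot be cleanly divided from those of miR-26b-5p. The NXT-Exo libraries held 302, 545, 334, 120 and 560 reads of miR-26-x, and Ctl-Exo 5 held 250. It held 11.7% to 21.0% of the reads of miR-26b-5p and miR-26-x together in NXT-Exo and 13.7% in Ctl-Exo 5. With miR-26-x added to miR-26b-5p, a choice made after the values were seen, miR-26a-5p had 87.1 to 98.5 reads per read in NXT-Exo and 74.7 in Ctl-Exo 5. The NXT-Exo mean was then 91.2 ± 4.26 (SD, n = 5), and its log2 ratio to Ctl-Exo 5 was 0.29 instead of 0.35. miR-26-z, the form of miR-26a-5p with a deleted base, had 4 to 25 reads per library, and miR-26-y had 0 to 4.

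**Figure D3:**
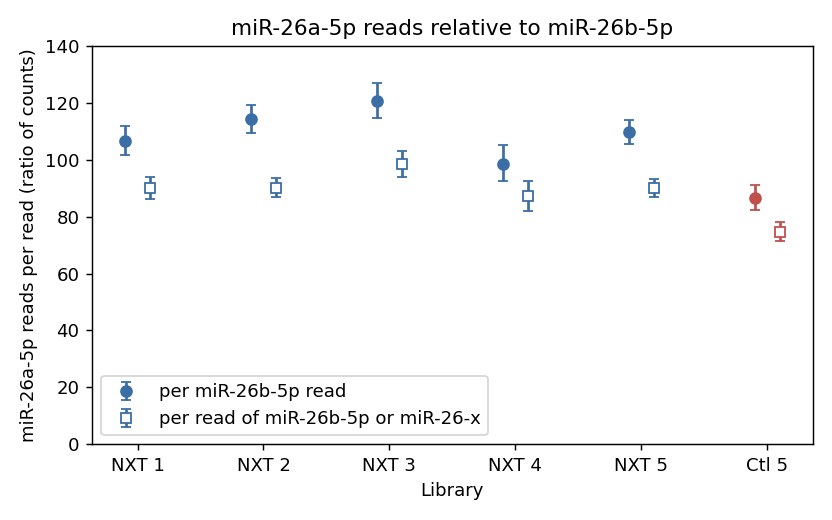
Reads of miR-26a-5p per read of miR-26b-5p (filled circles) and per read of miR-26b-5p or miR-26-x (open squares) in each library, as ratios of counts on a linear axis from 0. Bars are 95% counting intervals, blue is NXT-Exo and red Ctl-Exo 5, which is the lowest library by both measures (86.6 and 74.7).

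Between the strands of each hairpin the imbalance was far larger for miR-26a. Over the 6 libraries miR-26a gave 1094638 reads of the 5p arm and 19 of the 3p arm. The 12 reads of miR-26-y, which has the seed of miR-26a-3p, were not counted with that 3p arm. The 5p arm of miR-26b gave 10214 reads and the 3p arm 255. miR-26b thus had fewer 5p reads than miR-26a but more 3p reads, and this held in every library. miR-26b-3p had 10.1 to 59.0 reads per read of miR-26a-3p in NXT-Exo 1, 2, 3 and 5 and 3.29 in Ctl-Exo 5, while NXT-Exo 4 had 17 reads of miR-26b-3p and 0 of miR-26a-3p. Of 127 rat precursors with both arms listed, 113 had at least 100 reads. The 5p arm held more reads in 68 of them and the 3p arm in 45, and the median 5p share was 67.6%. miR-26a had the highest 5p share of the 113 (99.998%), ahead of miR-99a (99.994%), and miR-26b was the 27th (97.6%).

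The 3p share of miR-26b was 2.69%, 2.80%, 2.64%, 1.84% and 2.68% in NXT-Exo 1 to 5 and 1.44% in Ctl-Exo 5. NXT-Exo 4 stood apart from the other NXT-Exo libraries and was the nearest to Ctl-Exo 5. All NXT-Exo libraries were above Ctl-Exo 5, at 2.53% ± 0.39 (SD, n = 5), a difference of 1.09 percentage points that exceeded the SD. The interval of Ctl-Exo 5 (0.96% to 2.15%) overlapped with those of all NXT-Exo libraries except NXT-Exo 2 (2.18% to 3.60%). The 5p share of a precursor was likewise highest in Ctl-Exo 5 for 18.6% of the 113 arm pairs. With miR-26-x counted as a 5p read of miR-26b, the 3p share was 1.63% to 2.28% in NXT-Exo and 1.24% in Ctl-Exo 5.

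For miR-26a the 3p share was 0.0010% ± 0.0009 (SD, n = 5) in NXT-Exo and 0.0051% in Ctl-Exo 5, from 12 and 7 reads of the 3p arm. NXT-Exo 5 held 7 of the 12 reads, and without it the NXT-Exo mean was 0.00068%. The share in Ctl-Exo 5 was above that of each NXT-Exo library, the opposite order to miR-26b. Among the 113 arm pairs, 11.5% had their lowest 5p share in Ctl-Exo 5. The interval of Ctl-Exo 5 (0.0025% to 0.0106%) overlapped with those of NXT-Exo 1, 3, 4 and 5.

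**Figure D4:**
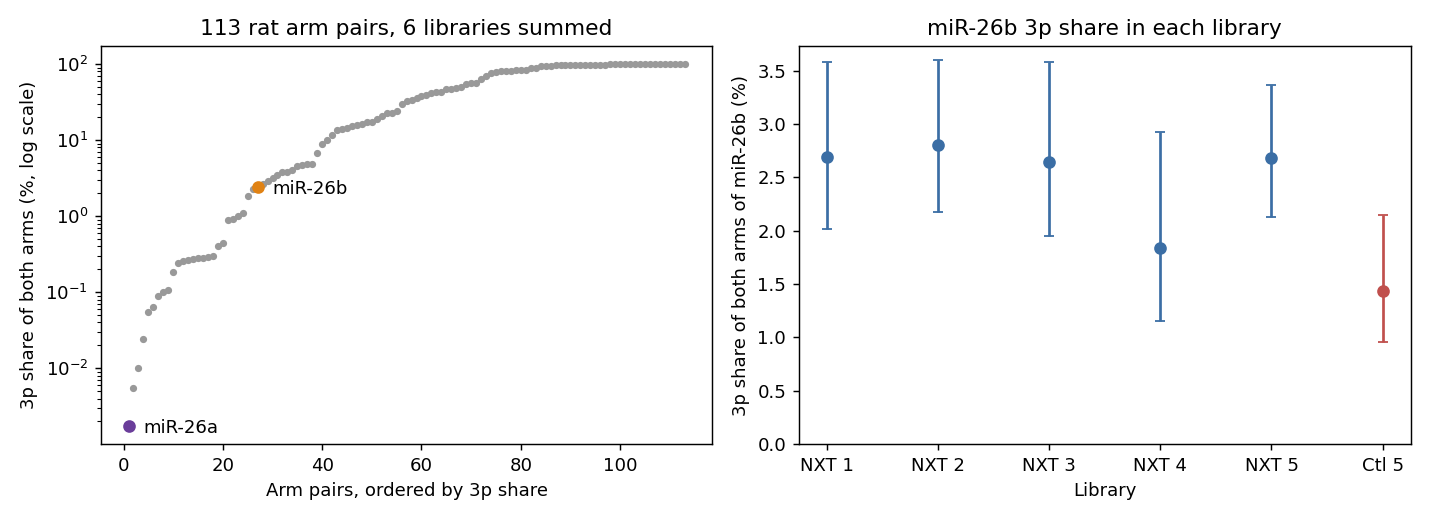
Left, the 3p share of the reads of both arms (percent, log axis) in 113 rat arm pairs with at least 100 reads, summed over 6 libraries and ordered by that share, with miR-26a lowest and miR-26b 27th. Right, the 3p share of miR-26b in each library (linear axis from 0) with 95% Wilson intervals, 1.84% to 2.80% in NXT-Exo (blue) and 1.44% in Ctl-Exo 5 (red).

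Between the NXT-Exo libraries themselves, the SD of miR-26a-5p on the log2(CPM + 1) scale was 0.17, the 30th lowest of 66 miRNAs that averaged 1000 CPM or more, whose median was 0.19. Its place was the 8th when counts were scaled to the listed total alone, so the order within this group depended on the library factors. miR-26b-5p had an SD of 0.15, the 12th lowest of 48 miRNAs with a mean of 300 to 1000 CPM (median 0.23), a band chosen after its level was seen. With counts scaled to the listed total alone, the SD of miR-26b-5p was 0.18 and that of miR-26a-5p 0.15. The place of miR-26b-5p in its band was not examined on that scale. For both 5p arms NXT-Exo 1 was the lowest library. Their coefficients of variation over the NXT-Exo libraries were 11.4% and 9.97%.

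Likeness to each 5p arm was measured by the SD, over the 6 libraries, of the log2 ratio of reads, among the 228 miRNAs above. Reads of both miRNAs come from the same library, so depth cancels in this measure. Closest to miR-26a-5p was miR-103-3p, a widely expressed miRNA known for its role in insulin sensitivity, with an SD of 0.04, while the median of the 228 was 0.26. miR-30c-5p (0.07), miR-15b-3p (0.08), miR-1839-5p (0.09) and miR-505-y (0.09) followed. miR-103-3p and miR-30c-5p stayed among the closest 5 when any 1 NXT-Exo library was left out, whereas miR-505-y did so in 1 of 5 cases.

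Closest to miR-26b-5p were let-7g-5p (0.07), a member of the growth-restraining let-7 family, miR-16-5p (0.09), miR-107-3p (0.09), miR-363-3p (0.11) and miR-1839-5p (0.12). let-7g-5p and miR-107-3p stayed among the closest 5 in all 5 cases. The median SD relative to miR-26b-5p was 0.31. The paralogues were not each other's closest. With an SD of 0.17 between them, miR-26b-5p was the 32nd in the order of miR-26a-5p, and miR-26a-5p the 19th in that of miR-26b-5p. These places were 31 to 69 and 15 to 47 when each NXT-Exo library was left out in turn. Ctl-Exo 5 was never left out, and it lay farthest from the mean log2 ratio of the paralogues (by 0.29). Over the NXT-Exo libraries alone the SD of that ratio was 0.11, and the places were not examined there.

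**Figure D5:**
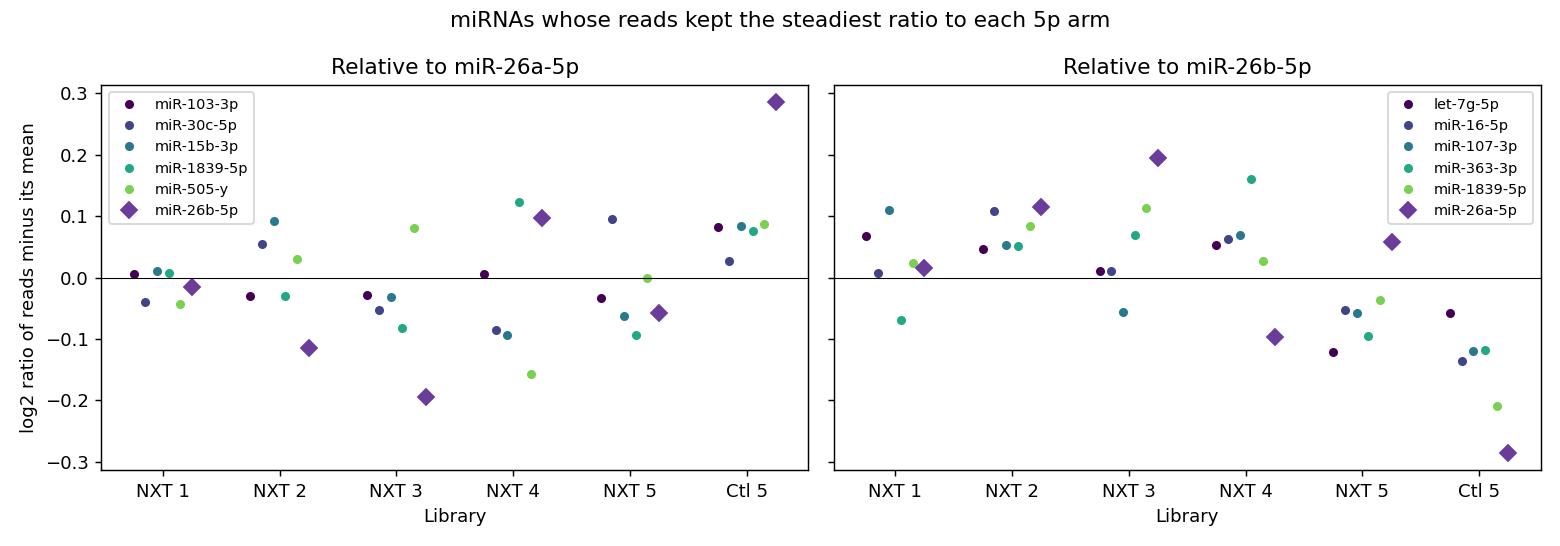
The log2 ratio of reads to miR-26a-5p (left) and to miR-26b-5p (right) in each library, minus its mean over the 6 libraries, for the 5 miRNAs with the lowest SD and for the other 5p arm (purple diamonds). In both panels the paralogue lies farther from 0 in Ctl-Exo 5 than the 5 closest miRNAs, at 0.29 and -0.29. This does not hold in every NXT-Exo library. The 5 were chosen for a low SD over these same 6 libraries, so their nearness to 0 follows from that choice.

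Beside other widely expressed miRNAs, miR-26a-5p lay within the range of differences. In a list of 10 such miRNAs (let-7a-5p, let-7f-5p, let-7i-5p, miR-16-5p, miR-21-5p, miR-30d-5p, miR-30e-5p, miR-92a-3p, miR-103-3p and miR-191a-5p), the log2 difference ranged from -0.30 to 0.31 with a median of -0.01, and none was called apart. Of the 10, 3 were lower in all 5 NXT-Exo libraries than in Ctl-Exo 5, beside 15.3% of all 865 miRNAs, and 1 was higher in all 5, beside 15.0%. miR-26b-5p, at -0.42, lay below this range.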

How the data were processed

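Small RNA of serum exosomes was sequenced by the authors (TruSeq Small RNA kit, Illumina HiSeq), who removed adapter dimers, low-complexity reads, other small RNA classes and repeats with ACGT101-miR. The table that the authors deposited holds raw counts, 1 row for each miRNA name. Some rows, such as let-7a-1-3p and let-7c-2-3p, have the same mean reads and log2 difference. Each was counted as a row of its own. The authors also deposited TPM values, which are the count times a constant per library, not divided by length, with 0 reads written as 0.01. The aligner and miRNA release are not given in the sources used here, and the submitters' processing notes name the build Rnor_6.0. Samples were grouped by their titles, and 8 columns named for Ctl-Exo 1 to 4 (counts and TPM), which match no sample described here, were not used here.

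The rule for the members uses names only, but the family, the lists and the comparisons were chosen with earlier results of these data known. Library factors were computed with edgeR 4.0.16 (TMM) in R 4.3.3 over 865 miRNAs with at least 1 read, and alternatively with DESeq2 1.42.0. The remaining steps used Python 3.11.15, numpy 2.4.6, pandas 2.3.3 and matplotlib 3.10.9. Differences were taken on the log2(CPM + 1) scale, from the NXT-Exo mean CPM and the CPM of Ctl-Exo 5, with no p-value because 1 Ctl-Exo library was analysed. A miRNA was called apart at 2-fold or more with Ctl-Exo 5 outside the NXT-Exo range. Shares and ratios used raw reads with 95% Wilson intervals. The miRNAs named are the members, sequences sharing a seed (bases 2 to 8), the 5 miRNAs most like each 5p arm (reads + 0.5, mean of at least 100 reads) and fixed lists. No 2 libraries agreed within sampling noise (chi-square per degree of freedom of at least 38.1). Sequences were taken from the deposited table and RefSeq (GRCr8).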

Additional observations from a re-analysis of the deposited data

Results flagged for a closer look

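In 8 sets of 5 NXT-Exo values (the levels of the members, the 3p shares, the miR-26a share of the 5p reads and the share of all listed reads), 1 library lay far from the others, and chance gives about 1 in 20 such sets. The 3p share of miR-26b was 1.84% in NXT-Exo 4 whereas the others lay at 2.64% to 2.80%. Its gap to the nearest was 0.833 of the whole range, against a critical value of 0.71. NXT-Exo 4 had the fewest listed reads (1168686), and the share rests on 17 reads of miR-26b-3p, with an interval of 1.15% to 2.92% that contains the shares of the other NXT-Exo libraries. Without NXT-Exo 4 the NXT-Exo mean was 2.70%.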

How the results depend on the processing

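No paired analysis was made. The rats were divided at random between the groups, and the labels do not pair libraries of equal replicate number. Replicate 5 is the only number shared by the libraries analysed, the columns named for Ctl-Exo 1 to 4 being unused. The differences carry no test. Over 13 alternatives, the log2 difference of miR-26a-5p stayed below 0 (-0.12 to -0.02), as did that of miR-26b-5p (-0.46 to -0.37), and that of miR-26b-3p stayed above 0 (0.24 to 0.47). miR-26a-3p (-1.47) was -2.22 with a pseudocount of 0.1 CPM and -0.36 with one of 10 CPM, where it was no longer called, and was -1.71 to -1.31 when each NXT-Exo library was left out. It had no value with a minimum mean of 10 reads. The number of miRNAs called apart (99, of which 46.5% higher in NXT-Exo) fell to 4 with a pseudocount of 10 CPM (75.0% higher) and to 31 with a minimum mean of 10 reads (71.0% higher), and was 101 to 121 when each NXT-Exo library was left out. The family share of NXT-Exo (7.14%) was 6.22% of the library totals that the deposited TPM imply, which are larger than the listed totals. With miR-26-x counted as miR-26b-5p, chosen after the data were seen, the miR-26a share of the 5p reads of NXT-Exo (99.10%) was 98.91% and the 3p share of miR-26b (2.53%) was 2.10%. Of the 5 miRNAs closest to miR-26a-5p, 2 remained with a minimum mean of 1000 reads and 2 to 4 with an NXT-Exo library left out, the fewest without NXT-Exo 1. For miR-26b-5p these were 3 and 2 to 4, with the fewest again without NXT-Exo 1. Both 3p arms are limited by depth, as 1 read in Ctl-Exo 5 amounts to 0.544 CPM.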
